A study of Sus scrofa with 18 samples.

Results

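Histone deacetylases remove acetyl groups from histones and other proteins, and acetyltransferases add them. Acetylated histones mark open chromatin, so the balance of these enzymes bears on which genes of a muscle fibre are read. In mouse muscle, loss of nerve supply is known to raise HDAC4 and, with it, genes of the atrophy response, and KAT2B (also called PCAF) is known there as a coactivator of the myogenic factor MyoD.

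The genes described here are the acetyltransferases KAT2B and EP300, the class I deacetylases HDAC1, HDAC2 and HDAC3, the class IIa deacetylases HDAC4, HDAC5 and HDAC9, and the NAD-dependent deacetylase SIRT1. They were taken by name, as every probe set whose gene symbol or gene name in the deposited annotation was that of a listed gene. This gave 18 probe sets of 9 genes, among 23999 probe sets tested that carry 9553 named genes. HDAC4 had 5 probe sets, HDAC3 and SIRT1 had 3 each, HDAC9 had 2, and the other genes had 1 each. No pig annotation name differed from that of the listed gene among the 18. A probe set without a pig name took that of the human homolog column, so agreement of both sources was not tested.

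The samples were muscle of 5 female domestic piglets, a model of the weakness that follows intensive care, hybridised to Affymetrix porcine arrays. All animals were anaesthetised and ventilated for 5 days and received the neuromuscular blocker pancuronium (0.1 mg/kg/h), the corticosteroid betamethasone (0.1 mg/kg, 2 times a day) and bacterial endotoxin (36 µg/kg/h for 1 h). There were 5 masseter arrays at day 5 and 5 at day 1 (the labels' control), and 4 biceps femoris arrays at day 5 and 4 at day 1. Masseter closes the jaw and biceps femoris moves the hind limb, and the series title asks how the chewing muscle is spared. No arrays of untreated animals at day 5 were analysed here, so elapsed time and the combined treatment cannot be told apart. The animals' ages were not used here.

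Values are log2 intensities after RMA, an array normalization that sums the probes of a probe set. The authors had normalized the muscles separately, so levels are compared only within a muscle. Between the muscles only the changes, day 5 minus day 1, are compared. A change counts as called when its adjusted p is under 0.05 in limma's moderated test, over all 23999 probe sets. The arrays bore out the tissue label, since the mean of 11 muscle fibre markers lay between 10.96 and 12.48 on every array, far above the array medians of 6.09 to 6.16. The fibre marker mean ran from 11.89 to 12.12 in masseter at day 5, against 12.21 to 12.48 at day 1, without overlap, and 4 of the 11 markers fell and 1 rose there. Macrophage and leukocyte markers averaged 6.48 to 7.36 in masseter at day 5, against 6.17 to 6.86 at day 1, and 2 of 11 rose. In biceps femoris the fibre mean ran from 10.96 to 11.67 at day 5, against 12.12 to 12.15 at day 1, and that of 8 fibroblast markers from 8.93 to 10.08 at day 5, against 10.65 to 11.32 at day 1. In biceps femoris 6 of the 8 fibroblast markers and 3 of the 11 fibre markers fell, and in masseter 1 of the fibroblast markers did. The BioC hybridisation spike-in read 7.43 to 7.78 on the biceps femoris day 5 arrays, against 8.87 to 9.13 on day 1 replicates 1 to 3 and 7.97 on day 1 replicate 4. Biceps femoris day 5 replicate 1 also stood apart, with an actin 3′ minus 5′ signal of 2.05, against 1.04 to 1.15 on the other day 5 arrays. In masseter, leaving out day 5 replicate 1 gave 4628 calls over all probe sets, against 3318 with it. The 28S ribosomal signal read 12.09 to 13.12 on the biceps femoris day 5 arrays, against 11.68 to 12.07 at day 1. In masseter the actin signal read 2.38 to 2.71 at day 5, against 2.27 to 2.46 at day 1. BioC read 9.69 to 10.10 there, against 9.69 to 10.25, and 28S 9.40 to 10.31, against 9.93 to 10.33. These control signals thus also differed between the muscles, which were normalized apart. The part of these differences in the results below was not tested. Taking the spike-in sets as a block ended some of the calls given in biceps femoris. For members, and for list genes by their probe set of highest mean, each such call has the value or adjusted p with that block beside it. Calls on further probe sets of list genes, and of the genes of nearest profile, were not followed under that block. The block compares the 4 day 5 arrays with a single day 1 array, replicate 4.

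In masseter, KAT2B, HDAC4 and HDAC2 were higher at day 5, and none of the 9 genes was called lower. In biceps femoris, HDAC2, HDAC3 and HDAC4 were higher, and again none was called lower. KAT2B had the larger change in masseter, without a call in biceps femoris, and HDAC3 rose in biceps femoris without a call in masseter. Both differences between the muscles passed the test, but these calls were lost under 9 and 16 of 22 alternatives. In masseter 4 of 18 probe sets were called, which is 22.2%, while 13.8% of all probe sets were called, 7.31% higher and 6.51% lower. In biceps femoris 5 of 18 were called, which is 27.8%, while 17.2% of all were called, 9.89% higher and 7.27% lower. The members' shares lie near those of the whole array and are no result about these genes. In the difference of the changes, 2 of 18 were called, 1 in each direction, while 0.200% of all probe sets were called, 0.0667% higher and 0.133% lower in masseter. The median change of the 9 genes, each by its probe set of highest mean, was 0.10 in masseter and 0.33 in biceps femoris, against -0.03 and -0.02 over all probe sets. Since the tissue was measured in bulk, fewer cells of a type and less RNA per cell cannot be told apart.

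**Figure D1:**
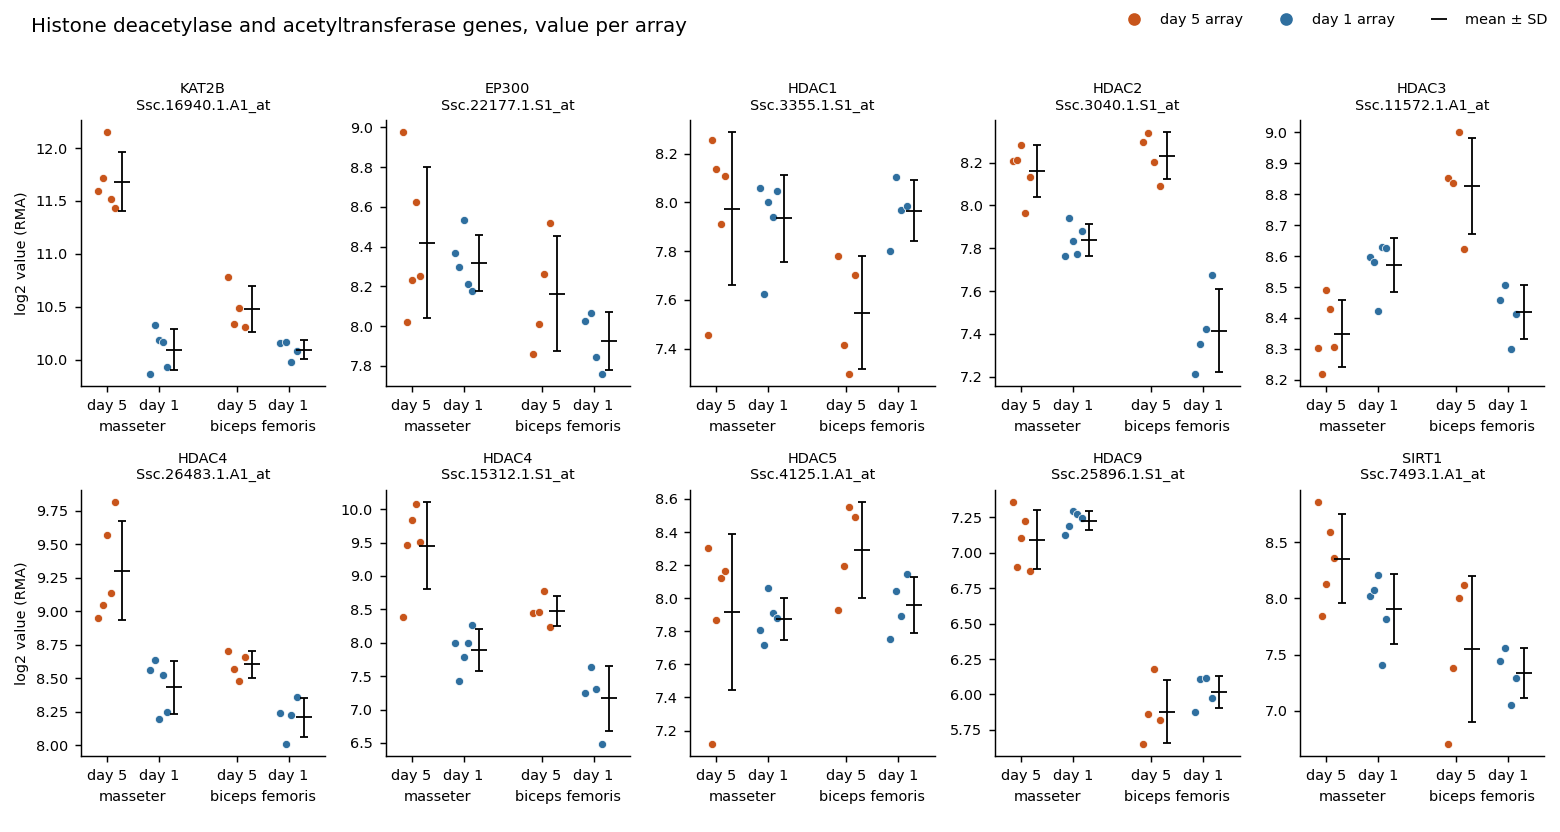
Log2 values (RMA, vertical axis) of 10 probe sets on each array, with day 5 in orange left of day 1 in blue for masseter (5 arrays each) and biceps femoris (4 arrays each), and the mean ± SD in black. KAT2B and both HDAC4 probe sets separate the days in masseter, and levels may not be read across muscles because these were normalized apart.

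The acetyltransferases were KAT2B, which belongs to the SAGA and ATAC coactivator complexes, and EP300, a coactivator of many transcription factors. In masseter, KAT2B (Ssc.16940.1.A1_at) read 11.59, 11.72, 12.15, 11.52 and 11.43 at day 5, against 9.86, 10.33, 10.19, 10.16 and 9.93 at day 1. All 5 day 5 arrays lay more than 1 log2 unit above every day 1 array. The change was 1.59 ± 0.14 (SE), a 3.00-fold rise with an adjusted p of 0.00024, and the 5 animals' own changes ran from 1.35 to 1.96. No other probe set of the 18 had so small an adjusted p in masseter. With the animal as a block the adjusted p was 0.0026.

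In biceps femoris, KAT2B read 10.78, 10.34, 10.49 and 10.31 at day 5, against 10.16, 10.16, 9.97 and 10.08 at day 1. The groups did not overlap there either, but the change of 0.38 ± 0.12 (SE) had an adjusted p of 0.0585 and was not called. Replicate 1 was the highest day 5 array, and without it the change was 0.28 (adjusted p = 0.072). With array weights the KAT2B change was called in biceps femoris (adjusted p = 0.0432). The masseter change exceeded the biceps femoris change by 1.20 ± 0.20 (SE, adjusted p = 0.0263). This call was lost when any 1 of 9 arrays was left out, with adjusted p-values up to 0.0671. In masseter these were day 1 replicates 1, 4 and 5 and day 5 replicate 2. In biceps femoris they were day 1 replicates 1 and 2 and day 5 replicates 2, 3 and 4. The size of the difference stayed between 1.09 and 1.31 under the 22 alternatives run.

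EP300 (Ssc.22177.1.S1_at) had no called change. In masseter it read 8.97, 8.02, 8.23, 8.63 and 8.25 at day 5, against 8.37, 8.30, 8.53, 8.21 and 8.18 at day 1, a change of 0.10 ± 0.17 (SE, adjusted p = 0.726). The day 5 arrays enclosed the whole day 1 range, and the gene was higher in 3 animals and lower in 2. In biceps femoris the change was 0.24 ± 0.15 (SE, adjusted p = 0.344), with overlapping groups.

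The class I deacetylases are nuclear enzymes, HDAC1 and HDAC2 as catalytic subunits of the SIN3, NuRD and CoREST corepressor complexes and HDAC3 as that of the NCOR complexes. In biceps femoris, HDAC2 (Ssc.3040.1.S1_at) read 8.30, 8.34, 8.20 and 8.09 at day 5, against 7.21, 7.35, 7.42 and 7.67 at day 1. The groups were separate, and the day 1 array nearest to the day 5 arrays was replicate 4, the array whose spike-in resembled theirs. The change was 0.82 ± 0.11 (SE), a 1.76-fold rise with an adjusted p of 0.00206. Within the arrays of low spike-in it was 0.56 (adjusted p = 0.0778 with the spike-in sets as a block).

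In masseter, HDAC2 read 8.20, 8.21, 8.28, 7.97 and 8.13 at day 5, against 7.76, 7.94, 7.83, 7.77 and 7.88 at day 1. The groups were separate by a narrow margin, so the gene was necessarily higher at day 5 in 5 of 5 animals, by 0.20 to 0.45. The change was 0.32 ± 0.08 (SE), a 1.25-fold rise with an adjusted p of 0.0257. Blocking on the animal ended this call (adjusted p = 0.0678), as did a further quantile normalization (0.0655) and trend and robust eBayes (0.0713), and so did leaving out any 1 of 6 arrays, namely day 5 replicates 2, 3 and 5 and day 1 replicates 1, 4 and 5 (up to 0.0632). The difference of the HDAC2 changes, masseter minus biceps femoris, was -0.49 ± 0.13 (SE, adjusted p = 0.130) and was not called.

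HDAC3 had 3 probe sets. In biceps femoris Ssc.11572.1.A1_at, the probe set of highest mean, read 8.85, 8.84, 9.0 and 8.62 at day 5, against 8.46, 8.51, 8.30 and 8.41 at day 1. Ssc.9066.1.S1_a_at read 8.10, 8.17, 8.16 and 7.93 at day 5, against 7.72, 7.44, 7.81 and 7.22 at day 1. On both, every day 5 array lay above every day 1 array. The changes were 0.41 ± 0.10 (SE, adjusted p = 0.0247) and 0.54 ± 0.14 (SE, adjusted p = 0.0298). The first call ended without any 1 of day 1 replicates 1, 3 and 4 and day 5 replicates 2 and 3 (up to 0.0725). The second ended without day 1 replicate 2 or day 5 replicates 1, 2 or 3 (up to 0.083). Within the arrays of low spike-in the changes were 0.42 (adjusted p = 0.228) and 0.88 (adjusted p = 0.0334), and on the second the single day 1 array compared was the lowest of its group. The third probe set, Ssc.11572.2.A1_at, read 3.76 to 4.12 at day 5, against 3.86 to 4.15 at day 1, which is near the floor of the arrays, and its change was -0.09 ± 0.12 (SE).

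In masseter, HDAC3 had no called change. Ssc.11572.1.A1_at read 8.30, 8.22, 8.49, 8.43 and 8.30 at day 5, against 8.60, 8.58, 8.42, 8.63 and 8.63 at day 1, a change of -0.22 ± 0.08 (SE, adjusted p = 0.0963). The day 5 arrays lay below 4 of the 5 day 1 arrays, and day 1 replicate 3 lay within their range. Ssc.9066.1.S1_a_at changed by -0.05 ± 0.12 (SE, adjusted p = 0.812). The difference between the muscles, masseter minus biceps femoris, was -0.63 ± 0.12 on Ssc.11572.1.A1_at (SE, adjusted p = 0.0455) and -0.60 ± 0.19 on Ssc.9066.1.S1_a_at (SE, adjusted p = 0.200). Only the first passed, and that call was lost under 16 of 22 alternatives, with adjusted p-values up to 0.12. It held when either biceps femoris day 5 replicate 1 or 4, masseter day 5 replicate 3 or 4, or masseter day 1 replicate 3 was left out, and ended without any other single array. Its size stayed between -0.70 and -0.57.

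HDAC1 (Ssc.3355.1.S1_at) had a negative change in biceps femoris that did not pass the test. It read 7.78, 7.41, 7.30 and 7.70 at day 5, against 7.80, 8.10, 7.97 and 7.99 at day 1, a change of -0.42 ± 0.13 (SE, adjusted p = 0.0591). The groups were separate, day 5 replicate 1 being the nearest to day 1. Without that array the change was -0.49 and was called (adjusted p = 0.03). It was also called lower with array weights (0.022) and after a further quantile normalization (0.0289). In masseter HDAC1 read 7.46, 8.25, 8.14, 7.91 and 8.11 at day 5, against 8.06, 7.62, 8.0, 7.94 and 8.05 at day 1, and its change was 0.04 ± 0.15 (SE, adjusted p = 0.896). Animal 1 changed by -0.60 and animal 2 by 0.63, and the other 3 by -0.03 to 0.13.

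The class IIa deacetylases shuttle between nucleus and cytoplasm and repress MEF2 transcription factors when nuclear. HDAC4 had 5 probe sets, of which 2 rose in both muscles and 3 were called in neither. In masseter Ssc.15312.1.S1_at read 8.39, 9.46, 9.84, 10.08 and 9.51 at day 5, against 8.0, 7.42, 7.78, 8.0 and 8.26 at day 1. Ssc.26483.1.A1_at, the probe set of highest mean, read 8.95, 9.05, 9.57, 9.13 and 9.81 at day 5, against 8.56, 8.64, 8.20, 8.52 and 8.25 at day 1. On both, all day 5 arrays lay above all day 1 arrays, and day 5 replicate 1 was the lowest of the day 5 arrays.

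The masseter changes were 1.56 ± 0.28 (SE, adjusted p = 0.00618) on Ssc.15312.1.S1_at and 0.87 ± 0.17 (SE, adjusted p = 0.00946) on Ssc.26483.1.A1_at, rises of 2.95-fold and 1.83-fold. With groups so separate, HDAC4 was necessarily higher in 5 of 5 animals on each. Animal 1 had the smallest rise on both, at 0.38 and 0.39, whereas animals 2, 3 and 4 rose by 2.04 to 2.07 on Ssc.15312.1.S1_at. Without day 5 replicate 1 the changes were 1.83 and 0.96. With the animal as a block the adjusted p-values were 0.0187 and 0.0446.

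In biceps femoris Ssc.15312.1.S1_at read 8.45, 8.46, 8.77 and 8.24 at day 5, against 7.25, 7.64, 7.31 and 6.49 at day 1. Ssc.26483.1.A1_at read 8.70, 8.57, 8.48 and 8.66 at day 5, against 8.24, 8.01, 8.22 and 8.36 at day 1. Both separated the days completely. The changes were 1.31 ± 0.23 (SE, adjusted p = 0.00645), a 2.48-fold rise, and 0.40 ± 0.10 (SE, adjusted p = 0.0275), a 1.32-fold rise. Within the arrays of low spike-in they were 1.99 (adjusted p = 0.00827) and 0.24 (adjusted p = 0.452), and on the first the single day 1 array compared was the lowest of its group. The call on Ssc.26483.1.A1_at also ended without any 1 of day 1 replicates 1, 2 and 3 and day 5 replicates 1 and 4 (up to 0.0725). The difference of the changes was 0.25 ± 0.40 (SE, adjusted p = 0.851) on Ssc.15312.1.S1_at and 0.47 ± 0.22 (SE, adjusted p = 0.396) on Ssc.26483.1.A1_at, so that no difference between the muscles was shown.

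The other 3 HDAC4 probe sets did not follow. Ssc.29449.1.A1_at was lower at day 5 in 4 of 5 animals in masseter, with a change of -0.37 ± 0.12 (SE, adjusted p = 0.0593), and in biceps femoris its change was -0.26 ± 0.11 (SE, adjusted p = 0.151). Without masseter day 5 replicate 1 the masseter change was -0.41 and was called (adjusted p = 0.0377). Ssc.8225.1.A1_at read between 4.08 and 4.54 on all arrays and changed by -0.11 in masseter and -0.05 in biceps femoris. Ssc.7979.1.A1_at changed by -0.14 in masseter and by 0.14 in biceps femoris, where replicate 1 read 7.79 and the other day 5 arrays 6.69 to 6.74. Without that array its biceps femoris change was -0.13 (adjusted p = 0.33). The 5 probe sets named HDAC4 thus differed in the sign of their changes, and which part of the transcript each one probes was not used here.

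**Figure D2:**
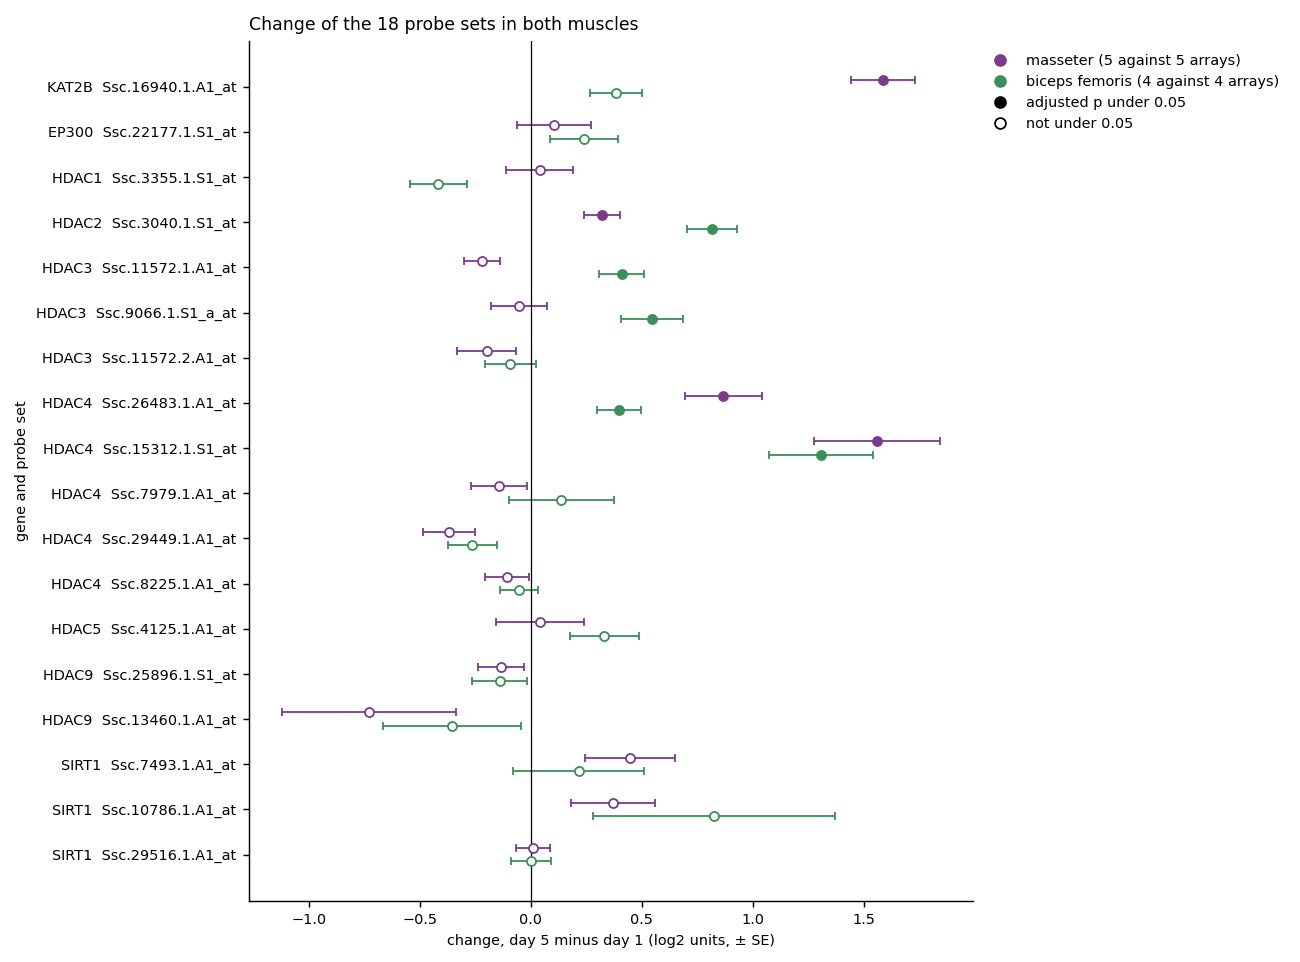
Change in log2 value, day 5 minus day 1 (horizontal axis, ± SE), of each of the 18 probe sets in masseter (purple) and biceps femoris (green), with filled points where the adjusted p is under 0.05. The largest called change is that of KAT2B in masseter, at 1.59, and the 5 HDAC4 probe sets lie between -0.37 and 1.56.

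HDAC5, a close relative of HDAC4, had 1 probe set (Ssc.4125.1.A1_at). In masseter it read 8.30, 7.12, 7.87, 8.12 and 8.17 at day 5, against 7.81, 7.72, 8.06, 7.91 and 7.88 at day 1, a change of 0.04 ± 0.20 (SE, adjusted p = 0.919). The day 5 arrays lay on both sides of the day 1 arrays. In biceps femoris it read 7.93, 8.19, 8.55 and 8.49 at day 5, against 7.76, 8.05, 7.90 and 8.14 at day 1, a change of 0.33 ± 0.16 (SE, adjusted p = 0.199), with 3 of 4 day 5 arrays above every day 1 array. Without day 5 replicate 1, the lowest, the change was 0.45 (adjusted p = 0.0511).

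HDAC9, the third class IIa enzyme, had no called change. Ssc.25896.1.S1_at changed by -0.14 ± 0.10 (SE, adjusted p = 0.427) in masseter and -0.14 ± 0.12 (SE, adjusted p = 0.508) in biceps femoris. Ssc.13460.1.A1_at was the noisier probe set. In masseter it read 7.31, 5.79, 6.05, 6.74 and 7.30 at day 5, against 7.47, 7.16, 8.38, 6.37 and 7.47 at day 1, a change of -0.73 ± 0.39 (SE, adjusted p = 0.245). Animals 2 and 3 had the most negative changes, of -1.37 and -2.33. In biceps femoris its change of -0.36 ± 0.31 (SE, adjusted p = 0.500) rested on replicate 1, which read 4.52, and was -0.03 without it.

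SIRT1 couples deacetylation to the cell's NAD and is known for deacetylating the mitochondrial coactivator PGC-1α. Its probe set Ssc.7493.1.A1_at read 8.85, 7.84, 8.13, 8.59 and 8.36 in masseter at day 5, against 8.02, 8.08, 8.21, 7.41 and 7.81 at day 1, a change of 0.45 ± 0.20 (SE, adjusted p = 0.173). The gene was higher in animals 1, 4 and 5, by 0.55 to 1.18, and lower in animals 2 and 3. In biceps femoris the change was 0.21 ± 0.30 (SE, adjusted p = 0.690), and 0.50 without day 5 replicate 1 (adjusted p = 0.137), which read 6.71, against 7.38 to 8.12 on the other day 5 arrays. On Ssc.10786.1.A1_at the masseter change was 0.37 ± 0.19 (SE, adjusted p = 0.226). In biceps femoris that probe set read 9.31, 6.74, 6.79 and 7.32 at day 5, against 6.34, 6.67, 6.55 and 7.30 at day 1. Its change of 0.83 ± 0.54 (SE, adjusted p = 0.364) rested on day 5 replicate 1 and was 0.24 without it (adjusted p = 0.589). The third probe set, Ssc.29516.1.A1_at, read 3.01 to 3.27 on all arrays.

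**Figure D3:**
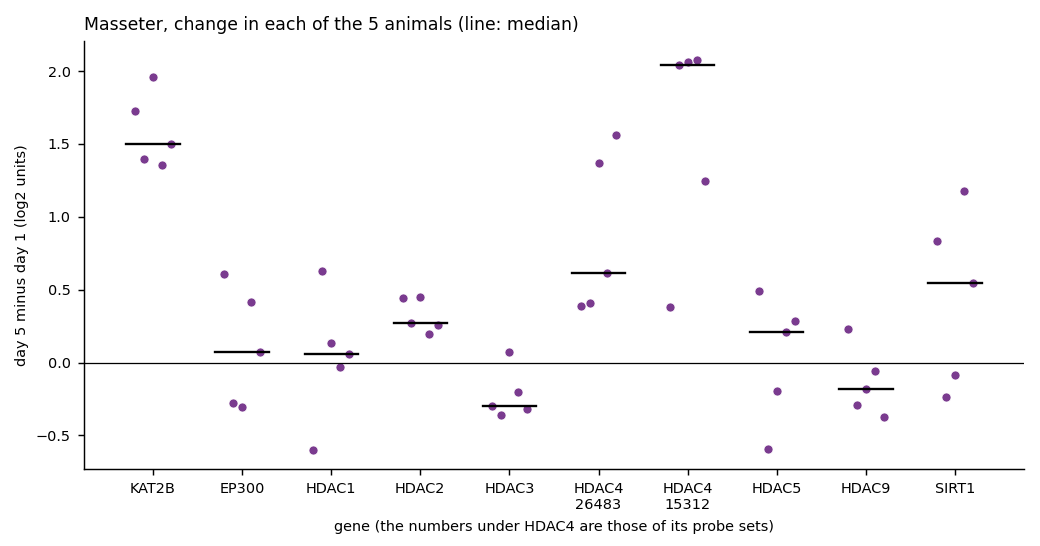
Change in log2 value, day 5 minus day 1 (vertical axis), of the members in each of the 5 animals with masseter arrays, ordered by animal within a gene, with the median as a line. KAT2B, HDAC2 and both HDAC4 probe sets (26483 and 15312 in the labels) were higher in 5 of 5 animals, which follows from their separate groups. EP300, HDAC1, HDAC3, HDAC5, HDAC9 and SIRT1 had changes of both signs.

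The animals' own values in masseter were read side by side across the genes. EP300, HDAC5 and SIRT1 (Ssc.7493.1.A1_at) were higher at day 5 in animals 1, 4 and 5 and lower in animals 2 and 3. In animal 1 these changes were 0.61, 0.49 and 0.83, and in animal 2 they were -0.28, -0.60 and -0.23. This likeness was seen on reading the values and was not tested. On Ssc.10786.1.A1_at SIRT1 was higher in animal 3 as well, by 0.01. Over the 18 probe sets, 4 had day 5 and day 1 groups that did not overlap in masseter and 8 in biceps femoris. Over all probe sets, 11.4% did not overlap in masseter and 22.2% in biceps femoris.

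Genes whose profile over the 18 arrays was nearest to a called member were found by the mean absolute difference of log2 values, each taken from the mean of its muscle. The nearest to KAT2B were UBAP2L (0.213) and PTK2 (0.236), whose masseter changes were 1.04 and 1.00 and biceps femoris changes 0.47 and 0.36. The nearest to HDAC4 were EIF4E2 (0.137) and NUP93 (0.164). The nearest to HDAC3 were ZDHHC22 (0.088) and GOLGA7 (0.096), and to HDAC2 SCRIB (0.09) and UBE2S (0.093). UBAP2L and PTK2 were called in biceps femoris (adjusted p = 0.0292 and 0.0486), where KAT2B, at 0.38, was not (adjusted p = 0.0585). The PTK2 change there was no larger than that of KAT2B. UBAP2L and PTK2 were picked by nearness on these same arrays, so their calls and their smaller masseter changes are no result about KAT2B.

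Lists of genes around these enzymes were then counted, with each gene given by its probe set of highest mean. Among 8 other deacetylases and sirtuins, 1 fell in each muscle, and it was SIRT3, the main mitochondrial deacetylase. SIRT3 read 6.24, 7.29, 7.22, 7.66 and 7.36 in masseter at day 5, against 8.60, 8.07, 8.53, 8.53 and 8.72 at day 1, with no overlap. Its change was -1.33 ± 0.24 (SE, adjusted p = 0.00538) in masseter and -1.14 ± 0.31 (SE, adjusted p = 0.036) in biceps femoris. The biceps femoris call ended without any 1 of day 1 replicates 2, 3 and 4 and day 5 replicates 3 and 4 (up to 0.0975), and with the spike-in block (0.309). None of the 8 was called higher by limma, and at an unadjusted p under 0.05, 0 were higher in masseter and 2 in biceps femoris. Without masseter day 5 replicate 1, and without biceps femoris day 5 replicate 1 or 2, 1 gene was called higher, and without masseter day 1 replicate 2 a further gene was called lower. The median change of the list was -0.08 in masseter and 0.01 in biceps femoris.

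Of 23 other acetyltransferases and their cofactors, 5 rose and 0 fell in masseter, and 6 rose and 0 fell in biceps femoris. Unadjusted p-values under 0.05 were found for 0 falls in masseter and 3 in biceps femoris. The list medians were 0.27 and 0.26. SUPT3H, a SAGA subunit, changed by 0.81 ± 0.18 (SE, adjusted p = 0.0154) in masseter and by 1.05 ± 0.11 (SE, adjusted p = 0.0006) in biceps femoris, and its masseter call ended with the animal as a block (0.0562). TADA3, an adaptor shared by SAGA and ATAC, rose in biceps femoris (0.64 ± 0.12, SE, adjusted p = 0.00737) and changed by 0.16 in masseter (adjusted p = 0.547). The biceps femoris call ended with the spike-in block, at 0.42 (adjusted p = 0.227). NCOA2, a nuclear receptor coactivator, rose by 1.22 in masseter (adjusted p = 0.0239). That call ended without day 1 replicate 4 or 5 or day 5 replicate 5 (up to 0.0586). In biceps femoris NCOA2 rose by 0.71 (adjusted p = 0.0373). The call there ended without day 1 replicate 1, 3 or 4 or day 5 replicate 3 or 4 (up to 0.0956), and with the spike-in block, at 1.07. With the animal as a block 3 genes of the list rose in masseter. There 3 rose without day 1 replicate 3 or day 5 replicate 2, and 2 rose without day 1 replicate 4 or 5 or day 5 replicate 5. In biceps femoris 3 rose without day 1 replicate 1, and 1 to 2 fell without day 5 replicate 2, 3 or 4.

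Of 26 subunits of the NCOR, SIN3, NuRD and CoREST complexes, 6 rose and 0 fell in masseter, where 0 fell at an unadjusted p under 0.05 too, and 8 rose and 1 fell in biceps femoris. The list medians were 0.35 and 0.32. GATAD2A, a NuRD subunit, changed by 0.79 ± 0.16 (SE, adjusted p = 0.0091) in masseter and by 0.98 ± 0.20 (SE, adjusted p = 0.0109) in biceps femoris, where the spike-in block ended the call, at 0.45 (adjusted p = 0.326). SAP18 and ING1, subunits of SIN3 complexes, rose in biceps femoris by 1.03 (adjusted p = 0.00286) and 1.00 (adjusted p = 0.000363). Their masseter changes of 0.33 (adjusted p = 0.218) and 0.36 (adjusted p = 0.0639) were not called. Without masseter day 5 replicate 1 the SAP18 change was called there (adjusted p = 0.00509). Other probe sets of SAP18 changed by -0.18 to 0.13 in biceps femoris. With the animal as a block 3 genes of the list rose in masseter, and without day 5 replicate 1 there were 10. In biceps femoris 5 rose without day 1 replicate 1 or 3 or day 5 replicate 4. The fall there, of TBL1X, an NCOR subunit, ended without day 1 replicate 1, 3 or 4 or day 5 replicate 2, 3 or 4 (up to 0.0974), and with the spike-in block (0.0813).

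Of 15 bromodomain proteins, which bind acetylated lysines, 6 rose and 1 fell in masseter, and 4 rose and 1 fell in biceps femoris. The list medians were 0.30 and 0.14. BRPF3 changed by 1.04 ± 0.18 (SE, adjusted p = 0.00506) in masseter and by 1.53 ± 0.23 (SE, adjusted p = 0.003) in biceps femoris. BAZ1A, a chromatin remodelling subunit, rose by 1.00 in masseter (adjusted p = 0.003). SMARCA2, an ATPase of the SWI/SNF remodellers, fell in both muscles, with changes of -0.77 in masseter (adjusted p = 0.0135) and -0.86 in biceps femoris (adjusted p = 0.0069). With the spike-in block the biceps femoris calls of both BRPF3, at 1.69 (adjusted p = 0.0517), and SMARCA2, at -0.52 (adjusted p = 0.227), ended. A further probe set of BRPF3 changed by -0.23 in masseter and 0.11 in biceps femoris, neither of them called.

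**Figure D4:**
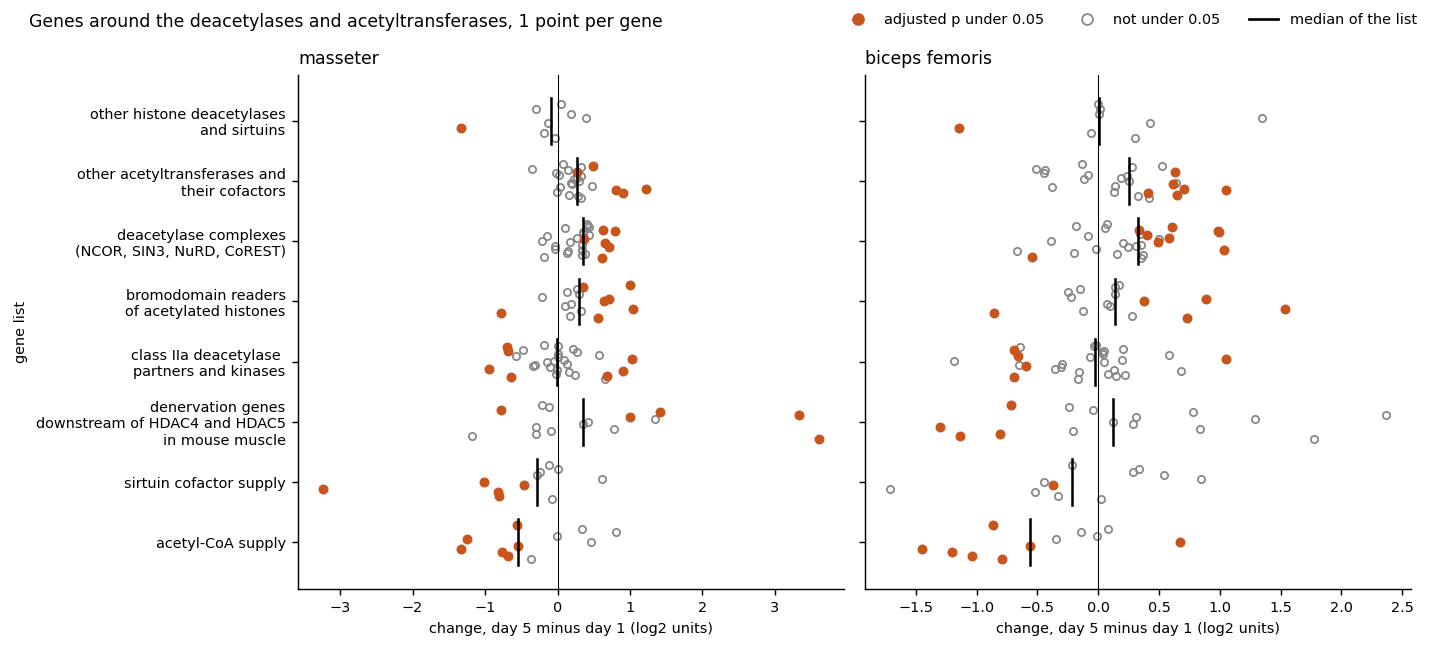
Change in log2 value, day 5 minus day 1 (horizontal axes), of each measured gene of the 8 lists in masseter (left) and biceps femoris (right), with called genes filled and the list median as a bar. Most called genes of the acetyltransferase, complex and bromodomain lists lie right of 0, and those of the acetyl-CoA list lie left of it.

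Of 28 partners and kinases of class IIa deacetylases, 3 rose and 4 fell in masseter, and 1 rose and 4 fell in biceps femoris, with list medians of -0.005 and -0.03. With the animal as a block 2 fell in masseter. MEF2A, a transcription factor that HDAC4 represses, changed by 1.03 ± 0.25 (SE, adjusted p = 0.0205) in masseter and by 1.05 ± 0.20 (SE, adjusted p = 0.00826) in biceps femoris. Leaving out masseter day 1 replicate 5 ended the masseter call on this probe set (0.0534), and 2 further MEF2A probe sets were called higher in both muscles. The spike-in block ended the biceps femoris call on this probe set, at 0.81 (adjusted p = 0.217). XPO1, the export receptor, and YWHAH, a 14-3-3 protein, rose in masseter by 0.91 (adjusted p = 0.00965) and 0.69 (adjusted p = 0.0141). In biceps femoris their changes of 0.68 (adjusted p = 0.108) and 0.15 (adjusted p = 0.666) were not called. Further XPO1 probe sets were called higher there, by 1.535 (adjusted p = 0.0101) and 0.453 (adjusted p = 0.0191). Another, at 0.597, was not (adjusted p = 0.0895). CAMK2G, a calcium/calmodulin-dependent kinase, fell in masseter by 0.68 (adjusted p = 0.00996), and CAMK2D fell in biceps femoris by 0.69 (adjusted p = 0.0135), or by 1.08 with the spike-in block. YWHAQ, another 14-3-3 protein, fell in both on its probe set of highest mean, by 0.64 (adjusted p = 0.012) and 0.70 (adjusted p = 0.00505). A further YWHAQ probe set fell in masseter (-0.64, adjusted p = 0.033) but was not called in biceps femoris (-0.26, adjusted p = 0.206). Another changed by 0.49 in masseter and 0.30 in biceps femoris, and the last by -0.23 and 0.07, none of these being called.

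Of 15 genes that in mouse muscle respond to denervation downstream of HDAC4 and HDAC5, 4 rose and 1 fell in masseter, and 0 rose and 4 fell in biceps femoris, where 2 were higher at an unadjusted p under 0.05. The list medians were 0.35 and 0.12. No direction was set for the genes of this list, so its counts and medians do not show whether the mouse response was followed. RUNX1, a transcription factor of denervated muscle, read 9.19, 10.29, 10.52, 10.52 and 10.16 in masseter at day 5, against 6.35, 6.83, 6.42, 6.42 and 6.64 at day 1, with no overlap. Its change was 3.60 ± 0.23 (SE, adjusted p = 5.36e-05). In biceps femoris RUNX1 read 10.60, 7.0, 8.0 and 7.84 at day 5, against 7.26, 6.58, 5.94 and 6.55 at day 1, a change of 1.78 (adjusted p = 0.127). Day 5 replicate 1 was the highest there, and without it the change was 1.03 (adjusted p = 0.077). A further RUNX1 probe set changed by 0.05 in masseter. GADD45A, a stress gene downstream of HDAC4 in mouse, changed by 3.33 ± 0.71 (SE, adjusted p = 0.0131) in masseter and by 2.37 ± 0.70 (SE, adjusted p = 0.0526) in biceps femoris. Its biceps femoris day 1 replicate 1 read 11.54, against 7.95 to 9.25 on the other day 1 arrays, and without it the change was called (adjusted p = 0.00366). FBXO32, the ubiquitin ligase atrogin-1, rose in masseter by 1.42 ± 0.33 (SE, adjusted p = 0.0183). In biceps femoris NCAM1, an adhesion molecule of denervated fibres, fell by 0.81 (adjusted p = 0.0064). The fall called in masseter, ENO3, was lost when animals were blocked (0.0592) or any 1 array was left out other than day 5 replicate 1 (up to 0.0902), and in biceps femoris 2 fell without day 5 replicate 3.

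The substrates of these enzymes were covered by a list for NAD, which sirtuins use, and a list for acetyl-CoA, which acetyltransferases use. Of 11 genes of NAD supply and use, 0 rose and 5 fell in masseter, and 0 rose and 1 fell in biceps femoris, with 1 and 2 higher at an unadjusted p under 0.05. The medians were -0.28 and -0.22. NMNAT3, an enzyme of NAD synthesis, fell in masseter by 1.01 (adjusted p = 0.00119). There were 3 masseter falls without day 1 replicate 1 or 2 or day 5 replicate 4, and 2 without day 1 replicate 4 or 5 or day 5 replicate 2 or 5. The biceps femoris fall, of NMRK1, another enzyme of NAD synthesis, was -0.37, and its call ended without any 1 array other than day 1 replicate 4 (up to 0.107) and with the spike-in block (0.622). Without day 5 replicate 2 the list had 2 falls there, and without day 1 replicates 1, 2 or 3 or day 5 replicates 3 or 4 it had 0. Of 11 genes of acetyl-CoA supply, 0 rose and 6 fell in masseter, with 3 higher at an unadjusted p under 0.05, and 1 rose and 6 fell in biceps femoris. The rise, CRAT, ended without day 1 replicate 2 or 3 or day 5 replicate 3 (up to 0.0526) and with the spike-in block (0.439), and a further CRAT probe set fell there (-0.69, adjusted p = 0.00785). The medians were -0.54 and -0.56. DLAT, a subunit of pyruvate dehydrogenase, read 9.24, 8.96, 8.94, 8.71 and 9.01 in masseter at day 5, against 10.64, 9.82, 10.39, 10.33 and 10.36 at day 1. Its change was -1.34 ± 0.15 (SE, adjusted p = 0.000637) in masseter and -1.45 ± 0.18 (SE, adjusted p = 0.0011) in biceps femoris. A further DLAT probe set changed by -0.06 in masseter and -0.66 in biceps femoris, uncalled. PDHA1 and PDHB, further subunits, fell in both muscles, by 0.77 and 0.68 in masseter (adjusted p = 0.0113 and 0.00338) and by 1.21 and 1.04 in biceps femoris (adjusted p = 0.00126 and 0.00182). The spike-in block gave -0.94 for PDHA1 (adjusted p = 0.058) and -1.05 for PDHB (adjusted p = 0.0502) in biceps femoris, neither of them called. ACSS2, which makes acetyl-CoA from acetate, fell in masseter by 1.25 (adjusted p = 0.0144).

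No gene of the 8 lists differed between the muscles in its change by limma's adjusted p. At an unadjusted p under 0.05, between 2 and 5 genes of each list did. With the spike-in sets as a block in biceps femoris, there were rises of 1 of 23 acetyltransferases and cofactors, 2 of 26 complex subunits and 0 of 15 bromodomain proteins (3 at an unadjusted p under 0.05), and of 0 of 28 class IIa partners and kinases and 0 of 11 acetyl-CoA genes (2 and 0 at that p). There were falls of 2 of 28 class IIa partners and kinases, 1 of 15 denervation genes and 1 of 11 acetyl-CoA genes. No fall was called by limma among the other deacetylases, complex subunits, bromodomain proteins or NAD genes, of which 0, 1, 1 and 0 were lower at an unadjusted p under 0.05. The part of the spike-in difference in these counts was not tested.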

How the data were processed

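The 10 masseter and 8 biceps femoris samples each had an Affymetrix porcine array. Per the submitters' processing notes and the labels, the authors made log2 values with RMA, and the deposited log2 values, between 2.52 and 15.2, were used as they stand. Sorted values differed by at most 0.230 between masseter arrays and 0.237 between biceps femoris arrays, and by at least 0.541 between muscles, so the muscles had been normalized apart. The authors' deposited table for biceps femoris also holds, per the file headers, a log2 fold change and an adjusted p-value, and for example gives HDAC2 a log2 fold change of 0.82 and an adjusted p of 0.0021, against 0.82 and 0.00206 here. That table also carries a log odds score, which was not used, and a short deposited list of linear fold ratios was not used. All per-array columns used were mapped to samples (0 were not).

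Groups followed titles, descriptions and the series text. In biceps femoris the day 1 arrays are called treated by their source and treatment labels, and a breed tag names wild boar where the protocols name domestic piglets. Masseter numbers mark animals, per the sample descriptions. Same-numbered masseter arrays correlated at -0.03 to 0.12 in their deviations from the group means. The best day 1 array of another number reached 0.05 to 0.14, above the same-numbered one for numbers 1, 3, 4 and 5. The values thus do not show the pairing, and the changes per animal rest on the descriptions. Biceps femoris labels name no animals, so no test linked the muscles, and the tests of their difference took arrays as independent, although the design text says that the animals were shared.

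The 124 Affymetrix control probe sets among 24123 were dropped. Names came from the pig annotation (5045 probe sets) or the human homolog column (13376), with 11 probe sets of several symbols and 5567 of none. The muscles had separate fits, each without covariates, by lmFit and eBayes of limma 3.58.1 under R 4.3.3, with two-sided tests. The difference of the changes was a contrast in a fit of 18 arrays with 4 groups. Benjamini-Hochberg adjustment ran over 23999 probe sets. The fit was tested on simulated data. The number of arrays limits the precision. Alternatives were the replicate number or the spike-in sets as a block, array weights, a further quantile normalization, trend and robust eBayes, 1 fit of all arrays, the lowest 25% of probe sets left out, the probe set of lowest mean per gene, a 1.5-fold minimum, and each array left out in turn.

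The members, the 8 lists and 7 marker lists, and the tests were chosen with earlier results of these data known. Named list genes were up to 3 called rises and falls of largest change per list and muscle. Not all of them are printed, and 1 is not reported here. HDAC4, like other member genes with several probe sets, is given by each of them. List genes are counted by their probe set of highest mean, and further probe sets are given for some of them only. Apart from that choice, no probe set's level is compared with another's.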

Additional observations from a re-analysis of the deposited data

Results flagged for a closer look

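The changes of KAT2B and HDAC3 differed between the muscles by a test of the difference itself. Masseter minus biceps femoris was 1.20 for KAT2B and -0.63 for HDAC3 (Ssc.11572.1.A1_at), with limma's adjusted p-values of 0.0263 and 0.0455. These calls were lost under 9 and 16 of 22 alternatives. The other HDAC3 probe set of measurable level, Ssc.9066.1.S1_a_at, had a difference of -0.60 that was not called (adjusted p = 0.200).

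Single arrays stood far from the others of their group in 10 of the 236 groups of values looked at, of which 4 were among the 72 groups of members. Chance flags about 1 group in 20. HDAC1 read 7.62 on masseter day 1 replicate 2, and the nearest array of that group read 7.94. HDAC3 (Ssc.11572.1.A1_at) read 8.42 on masseter day 1 replicate 3, with the nearest at 8.58. HDAC4 (Ssc.7979.1.A1_at) read 7.79 on biceps femoris day 5 replicate 1, with the nearest at 6.74. HDAC4 (Ssc.8225.1.A1_at) read 4.38 on biceps femoris day 1 replicate 1, with the nearest at 4.16.

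Among the list genes, SIRT3 read 8.07 on masseter day 1 replicate 2 (nearest 8.53), and GATAD2A read 6.86 on masseter day 1 replicate 5 (nearest 7.16). On masseter day 5 replicate 1, TADA3 read 9.0 (nearest 9.39) and RUNX1 9.19 (nearest 10.16). In biceps femoris, PDHB read 10.18 on day 5 replicate 1 (nearest 10.7), and ENO3, an enolase of muscle, read 14.21 on day 1 replicate 4 (nearest 14.02).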

How the results depend on the processing

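The masseter rises of KAT2B and of HDAC4 on both probe sets, and the biceps femoris rise of HDAC4 on Ssc.15312.1.S1_at, kept their call under every alternative run, leaving aside the spike-in block, which rests on a single day 1 array. Over all probe sets, masseter had 3318 calls, and 2047 to 4628 with 1 array left out, the count moving by over 1.5 times without day 1 replicate 4 (2138) or 5 (2047). With the replicate number as a block masseter had 2356 calls and 2 member genes, HDAC2 being lost. Biceps femoris had 4117 calls, 2951 to 4412 with 1 array left out, 1306 with the spike-in sets as a block and 3041 with the replicate block. Its numbers name no animals, and with that block 1 member gene was called, the calls of HDAC3 on Ssc.11572.1.A1_at (adjusted p = 0.0799) and HDAC4 on Ssc.26483.1.A1_at (0.0605) being lost. The block changed no other member call. The difference between the muscles had 48 calls, 527 with array weights, 17 after a further quantile normalization, 24 with trend and robust eBayes, and 9 to 266 with 1 array left out.

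Masseter called 3 member genes (2 to 3 with 1 array left out). After a further quantile normalization these were 2 higher and 1 lower, HDAC3 with an adjusted p of 0.0482 and HDAC2 without a call. Masseter called 2 with trend and robust eBayes, with the probe set of lowest mean or with a 1.5-fold minimum. Biceps femoris called 3 (1 to 3 with 1 array left out) and 6 with array weights (5 higher, 1 lower). It called 1 with trend and robust eBayes, with the probe set of lowest mean or with a 1.5-fold minimum. After a further quantile normalization it called 2, with 1 higher and 1 lower. HDAC3 on Ssc.11572.1.A1_at (adjusted p = 0.058) and Ssc.9066.1.S1_a_at (0.0651) and HDAC4 on Ssc.26483.1.A1_at (0.0574) then lost their calls. HDAC1 was called lower (0.0289). With the spike-in block limma called 0, and 2 had an unadjusted p under 0.05. The difference called 2 (0 to 2 with 1 array left out), and 1 after quantile normalization, without the lowest 25%, with trend and robust eBayes or with the probe set of lowest mean. Where it called 0, 3 to 5 genes had an unadjusted p under 0.05. The causes were not tested.

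Some uncalled values turned their sign, none of them being called afterwards. After a further quantile normalization these were HDAC1 (-0.027) and HDAC5 (-0.014) in masseter, CAMK2G (-0.037) and ENO3 (0.010) in biceps femoris, and the difference of HDAC9 on Ssc.25896.1.S1_at (-0.080). With array weights they were, in biceps femoris, HDAC4 on Ssc.7979.1.A1_at (-0.017), SIRT1 on Ssc.29516.1.A1_at (-0.027) and ENO3 (0.019), and the difference of HDAC9 on Ssc.25896.1.S1_at (-0.089). With the spike-in block they were HDAC3 on Ssc.11572.2.A1_at (0.049), YWHAH (-0.076) and CAMK2G (-0.346). With 1 array left out, masseter changes ran from -0.035 to 0.204 for EP300, -0.039 to 0.168 for HDAC1, -0.056 to 0.239 for HDAC5, -0.149 to 0.000 for HDAC3 on Ssc.9066.1.S1_a_at and -0.016 to 0.044 for SIRT1 on Ssc.29516.1.A1_at. Biceps femoris changes ran from -0.131 to 0.235 for HDAC4 on Ssc.7979.1.A1_at, -0.079 to 0.005 on Ssc.8225.1.A1_at, -0.047 to 0.038 for SIRT1 on Ssc.29516.1.A1_at, -0.116 to 0.437 for BAZ1A, -0.099 to 0.184 for CAMK2G, -0.071 to 0.018 for ENO3 and -0.028 to 0.267 for YWHAH. Differences ran from -0.071 to 0.106 for HDAC9 on Ssc.25896.1.S1_at, and for SIRT1 from -0.049 to 0.422 on Ssc.7493.1.A1_at, -0.722 to 0.136 on Ssc.10786.1.A1_at and -0.028 to 0.056 on Ssc.29516.1.A1_at.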
